A study of Mus musculus with 2 samples.

Results

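The endoplasmic reticulum (ER) folds, glycosylates and quality-checks secreted and membrane proteins. Its lumen holds chaperones such as BiP and GRP94 and enzymes that form disulfide bonds, and proteins that fail to fold are sent back to the cytosol for degradation. When unfolded proteins build up, the sensors IRE1, ATF6 and PERK start the unfolded protein response, which raises chaperone genes and slows translation. In the ovary these genes serve cells that secrete hormones, zona proteins and matrix. The account covers 36 mouse genes of this system out of 24421 rows in a count table from whole ovary. They were chosen by gene symbol, with the H19KO to WT ratios of this same table already known, so every ratio below is a description. All 36 were in the table and all reached a mean of at least 1 CPM (counts scaled to the size of the library).

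The study set an H19KO ovary library beside a wild-type (WT) ovary library, 1 library each, both from untreated C57BL/6J mice of 8 weeks. H19 is an imprinted long noncoding RNA, and the knockout sample carries the allele name H19(Δ3). Total RNA was depleted of ribosomal RNA before sequencing, and the labels do not say how many animals gave each sample. The deposited counts summed to 23041225 in the H19KO library and 23335131 in the WT library. H19 itself had 0 counts in the H19KO library and 672 in the WT library (95% exact Poisson interval 622.1 to 724.8). That is about 223-fold lower, taking a floor of 3 counts in the H19KO library, and this check of the labels found no mismatch. With 1 library per genotype no test was possible. Each ratio below is the log2 ratio of H19KO over WT counts scaled by TMM (a scaling that centres the bulk of genes near 0), followed in parentheses by its 95% exact binomial interval. Those intervals cover counting error only and leave out differences between animals or preparations. In whole tissue, fewer cells of a type and less RNA per cell cannot be told apart.

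Hspa5, Hsp90b1 and Calr, 3 of the most abundant ER chaperone genes, were lower in the H19KO library by similar amounts, while Sec61a1 of the translocon and the transcription factor genes Xbp1 and Atf4 lay nearer to equal. The differences were small. None of the 36 genes had an interval wholly beyond 1.5-fold in either direction, where 1.8% of the 13928 genes of at least 1 CPM were higher and 1.21% lower by that rule. None was beyond 2-fold either, against 0.61% of all genes higher and 0.388% lower. At a smaller limit of 0.32 log2 units, 8 of the 36 were lower and 0 higher, beside 3.42% and 4.2% of all genes. Hyou1 is no longer beyond that limit under total count scaling, which leaves 7. The 8 were Hspa5, Hsp90b1, Hyou1, Sdf2l1, Calr, Creld2, Syvn1 and Ppp1r15a.

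By counting error alone, 22 of the 36 genes lay below equality, 4 above it and 10 had intervals that held it. The same rule placed 24.0% of all genes below and 22.2% above. Since precise counts pass this rule more easily, genes of at least 50 CPM were also taken alone, a minimum chosen after the values were seen. There 16 of 25 of these ER genes were lower and 3 higher, beside 32.0% and 29.4% of 4949 genes. Beyond 0.32 log2 units at that abundance were 4 lower and 0 higher, beside 3.46% and 3.56%. The median log2 ratio of the 36 genes was -0.17, against -0.01 for all genes of at least 1 CPM. The central 95% of all genes ran from -0.67 to 0.79, and none of the 36 fell outside it.

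**Figure D1:**
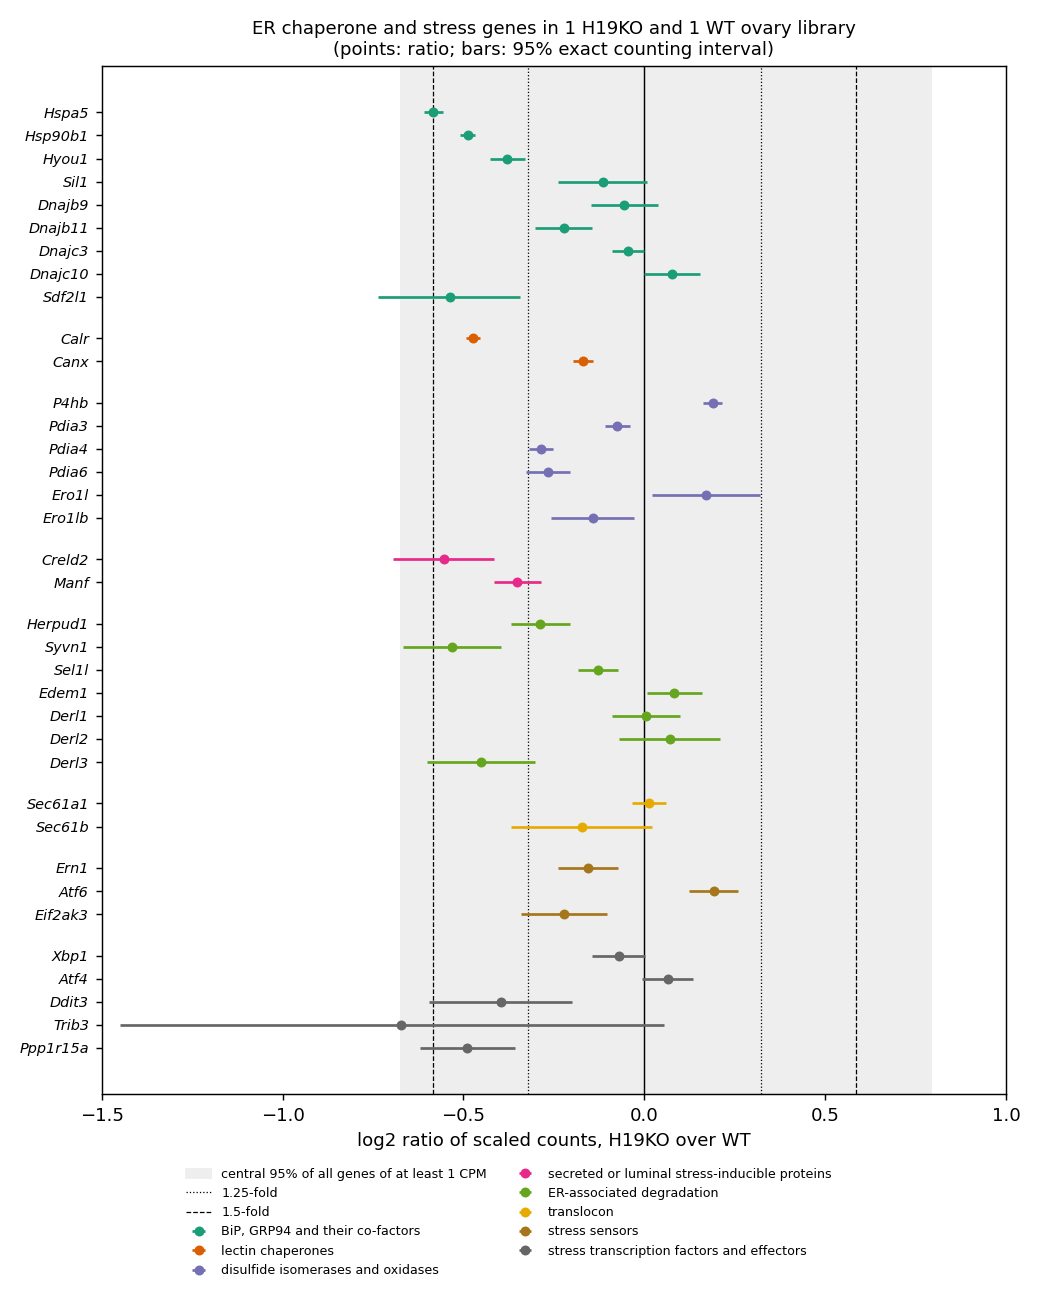
Log2 ratio of H19KO over WT (x axis) for each of the 36 genes, grouped by role from top to bottom; points are ratios, bars are 95% counting intervals, dotted and dashed lines mark 0.32 log2 units and 1.5-fold, and grey marks the central 95% of all genes. All points lie inside the grey band, and the points farthest to the left with narrow bars are Hspa5 (-0.58), Hsp90b1 (-0.49) and Calr (-0.47).

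A promoter element known as the ER stress response element (ERSE) was looked for, because ATF6 and XBP1 are known to act through it together with the CCAAT-binding factor NF-Y. The motif was CCAAT and CCACG separated by 9 bases of any kind, on either strand, in the 250 bases before each start in the RefSeq promoters of GRCm38.p6. Promoters were found for 30 of the 36 genes. The genes without one, Hyou1, Manf, Atf6, Sil1, Derl1 and Sec61a1, are left out of the comparison by motif. Of the 30, 10 held the motif (33.3%), against 0.113% of 32851 promoters of the same length. That background is counted by promoter, of which a gene can have several, and it includes those of the 36 genes. The motif was searched because it is known from the ER stress response, whose genes are among the 36. Its share among them is therefore no independent result. The sites are shown to let the spacing and the variable middle be compared, 5′ to 3′ on the strand that reads CCAAT first, with the 2 fixed blocks in capitals.

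Hspa5 (chr2:34772025-34772043, plus strand): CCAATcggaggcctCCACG
Creld2 (chr15:88819520-88819538, minus strand): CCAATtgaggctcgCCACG
Syvn1 (chr19:6046532-6046550, plus strand): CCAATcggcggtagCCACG
Hsp90b1, farther site (chr10:86705638-86705656, minus strand): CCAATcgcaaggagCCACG
Hsp90b1, nearer site (chr10:86705533-86705551, plus strand): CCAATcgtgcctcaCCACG
Calr (chr8:84847075-84847093, plus strand): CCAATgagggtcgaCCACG
Derl3 (chr10:75893242-75893260, minus strand): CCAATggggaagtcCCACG
Pdia6 (chr12:17266491-17266509, plus strand): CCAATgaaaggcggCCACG
Canx (chr11:50325800-50325818, minus strand): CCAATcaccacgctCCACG
Ero1lb (chr13:12565682-12565700, minus strand): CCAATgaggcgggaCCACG
Dnajc3 (chr14:118937827-118937845, plus strand): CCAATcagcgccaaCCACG

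The sites stand in order of the genes' ratios, from Hspa5 at -0.58 to Dnajc3 at -0.05. Their first bases lay between 44 and 212 bases before the RefSeq start, and that of Hspa5 lies inside the range GENCODE gives the gene. All 10 genes with the motif had intervals below equality, though that of Dnajc3 (-0.09 to -0.00) came to hold equality under another scaling. Of the 10 genes, 5 lay wholly beyond 0.32 log2 units. Their median log2 ratio was -0.46. The 20 genes whose promoter lacked these letters had a median of -0.14, with 10 intervals below equality, 3 above and 7 that held it. In that second set 2 genes lay wholly beyond that limit, Sdf2l1 and Ppp1r15a. Over all 10535 genes of at least 1 CPM with a promoter, 2506 intervals lay below equality and 2368 above, with a median of -0.01. Wholly beyond that limit were 337 lower and 439 higher. These are descriptions with no test. A match is a description of letters and no proof of a site, and its absence says only that these letters are not in this window.

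Outside the 36 genes, the motif was rare, and the ratios of the genes that held it lay on both sides of 0, some with wide intervals. A further 11 genes of at least 1 CPM held it, with a median log2 ratio of -0.00. Of these 0 were lower beyond counting error and 1 was higher, Xlr3b, with 49 counts in the H19KO library against 16 in the WT library. The most abundant of them, Pan2, had 1230 counts in H19KO and 1271 in WT, so small differences could stay within counting error. These genes were not matched for depth to the ER genes with the motif. The near relative Calr4 had 60 and 71 counts in the H19KO and WT libraries, too few to separate. The other motifs searched, also on both strands, were seldom found. ATTGG and CCACG separated by 1 base, called ERSE-II, lay in 1 of the 30 promoters, that of Herpud1, and in 0.0304% of all. TGACG directly followed by TGG, bound by XBP1 and ATF6 in other settings, lay in 0 of the 30 and in 0.563% of all promoters. TGATG and AA separated by 1 base, the kind of site that ATF4 shares with C/EBP factors, lay in 1, again Herpud1, and in 3.45% of all. ERSE and ERSE-II share both of their blocks and may overlap, and the reverse complement of the TGACG motif holds CCACG.

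**Figure D2:**
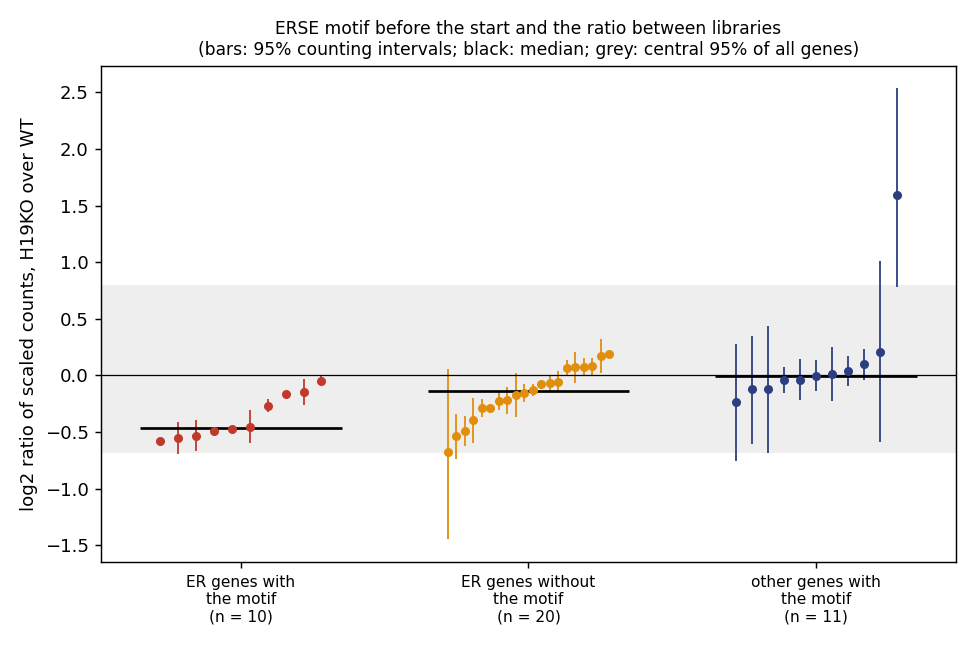
Log2 ratio of H19KO over WT (y axis) for ER genes with the ERSE motif, ER genes with a promoter that lacks it, and other genes that hold it; points are genes sorted by ratio, bars are 95% counting intervals, black lines are medians and grey is the central 95% of all genes. The 10 ER genes with the motif all lie below 0, with a median of -0.46, while the 11 other genes have a median of -0.00.

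The promoter stretches of 2 of the most abundant chaperones are given to show where the blocks lie, in capitals, with the gene's own strand printed and the bases inside the annotated gene left out. On this strand a site on the opposite strand reads CGTGG first and ATTGG last. The Hsp90b1 stretch is chr10:86705510-86705694 on the minus strand, 185 bases with 64.3% G and C and both sites. The Calr stretch is chr8:84846935-84847181 on the minus strand, 247 bases with 61.9% G and C and 1 site.

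Hsp90b1: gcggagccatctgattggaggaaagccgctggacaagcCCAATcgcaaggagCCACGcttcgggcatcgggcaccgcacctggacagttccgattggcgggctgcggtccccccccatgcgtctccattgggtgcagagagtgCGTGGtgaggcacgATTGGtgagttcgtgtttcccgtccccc
Calr: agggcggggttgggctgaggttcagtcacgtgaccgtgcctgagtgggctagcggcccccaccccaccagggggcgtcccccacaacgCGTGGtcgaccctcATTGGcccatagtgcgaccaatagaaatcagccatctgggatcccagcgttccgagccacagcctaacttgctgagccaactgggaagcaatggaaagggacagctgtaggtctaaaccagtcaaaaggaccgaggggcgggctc

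BiP, its partner GRP94 and their helpers gave the widest set. Hspa5, which encodes BiP, the ER member of the Hsp70 family (chromosome 2, 34771970 to 34777547 in mm10), had 19640 counts in the H19KO library and 29586 in the WT library. The log2 ratio was -0.58 (-0.61 to -0.56), and 1.39% of the 4949 genes of at least 50 CPM had a lower one. Hsp90b1, which encodes the ER Hsp90 protein GRP94 (chromosome 10, 86690209 to 86705509), had 31845 counts in H19KO and 44909 in WT, a log2 ratio of -0.49 (-0.51 to -0.47). Hyou1, the large Hsp70 relative that resets the nucleotide of BiP, had 6423 counts in H19KO and 8395 in WT (-0.38, -0.43 to -0.33). The 3 were lower in the H19KO library by more than counting error.

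Among the co-factors the values spread more widely. Sil1, the other nucleotide exchange factor of BiP, had 1021 counts in H19KO and 1112 in WT, and its interval held equality (-0.12, -0.24 to 0.01). Sdf2l1, a stress-inducible partner of the BiP complex, had 360 counts in H19KO and 526 in WT (-0.54, -0.74 to -0.34). The J-domain proteins hand clients to BiP. Of their 4 genes, Dnajb11 was lowest with 2386 counts in H19KO and 2801 in WT (-0.22, -0.30 to -0.14). Dnajc3, which also restrains PERK, had 8304 counts in H19KO and 8617 in WT (-0.05, -0.09 to -0.00). Dnajb9, a J-domain protein with a role in restraining IRE1, had 1855 counts in H19KO and 1938 in WT (-0.06, -0.15 to 0.04). Dnajc10, which is also a reductase of disulfide bonds, had 2717 counts in H19KO and 2591 in WT (0.08, -0.00 to 0.15). Thus 6 of the 9 genes of this role were lower beyond counting error and 0 higher, with a median of -0.22. Of all genes of at least 1 CPM, 24.0% were lower and 22.2% higher by that rule.

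The lectin chaperones calreticulin and calnexin hold newly made glycoproteins while they fold. Calr (chromosome 8, 84841850 to 84846934), which encodes the soluble calreticulin, had 38200 counts in the H19KO library and 53354 in the WT library, a log2 ratio of -0.47 (-0.49 to -0.46). Canx, which encodes the membrane-bound calnexin, had 20244 counts in H19KO and 22880 in WT (-0.17, -0.20 to -0.14). Both were lower in H19KO, and their intervals did not overlap.

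Genes for disulfide chemistry went in both directions. P4hb, the founding disulfide isomerase and also the beta subunit of the collagen prolyl hydroxylase (chromosome 11, 120560298 to 120573253), had 26015 counts in H19KO and 22954 in WT, a log2 ratio of 0.19 (0.16 to 0.21). Pdia3, the isomerase that works with calnexin and calreticulin, had 12873 counts in H19KO and 13638 in WT (-0.08, -0.11 to -0.04). Pdia4 had 12903 counts in H19KO and 15819 in WT (-0.29, -0.32 to -0.25). Pdia6, an isomerase that binds BiP, had 3942 counts in H19KO and 4766 in WT (-0.27, -0.33 to -0.20). The oxidase Ero1l, which recharges the isomerases, had 779 counts in H19KO and 696 in WT (0.17, 0.02 to 0.32). Its paralog Ero1lb had 1184 counts in H19KO and 1315 in WT (-0.14, -0.26 to -0.03). The oxidase paralogs thus lay on opposite sides of equality. Of the 6 genes Pdia3, Pdia4, Pdia6 and Ero1lb were lower in the H19KO library, and P4hb and Ero1l higher. Of other disulfide isomerases, not among the 36 genes, Tmx3 was higher at 0.17 (0.10 to 0.25). The interval of Pdia5 held equality (0.02, -0.22 to 0.26).

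Small luminal or secreted proteins of the stress response were lower. Creld2, a stress-inducible protein with growth-factor-like repeats (chromosome 15, 88819646 to 88826683), had 700 counts in the H19KO library and 1034 in the WT library, a log2 ratio of -0.55 (-0.70 to -0.42). Manf, a BiP-binding protein that cells can secrete, had 3323 counts in H19KO and 4261 in WT (-0.35, -0.42 to -0.28). In the annotation Manf shares exon positions with Rbm15b on the same strand, so reads of the 2 genes may not be separable. Rbm15b had 2479 counts in H19KO and 3366 in WT.

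The machinery of ER-associated degradation split. Syvn1, which encodes the membrane ubiquitin ligase HRD1 (chromosome 19, 6046576 to 6053712), had 756 counts in the H19KO library and 1099 in the WT library, a log2 ratio of -0.53 (-0.67 to -0.40). Its adaptor Sel1l had 5280 counts in H19KO and 5803 in WT (-0.13, -0.18 to -0.07). Herpud1, a membrane protein of the same ligase complex, had 2246 counts in H19KO and 2757 in WT (-0.29, -0.37 to -0.21). These 3 genes were all lower in H19KO, by unequal amounts. They do not stand for the whole complex, whose parts were not taken as a set. In the separate list of 28 other degradation genes, 9 were lower and 9 higher beyond counting error. The higher ones included Os9 (0.18, 0.13 to 0.23) and Erlec1 (0.54, 0.41 to 0.67).

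The derlins form part of the channel through which proteins leave the ER. Derl3 had 637 counts in H19KO and 876 in WT (-0.45, -0.60 to -0.30). Derl1 had 1838 counts in H19KO and 1843 in WT (0.00, -0.09 to 0.10), and Derl2 had 856 in H19KO and 820 in WT (0.07, -0.07 to 0.21). Only the interval of Derl3 lay below equality among these 3. Edem1, a lectin that marks misfolded glycoproteins for removal, had 2892 counts in H19KO and 2747 in WT (0.08, 0.01 to 0.16). Over the 7 genes of degradation 4 were lower beyond counting error and 1 higher, beside 24.0% and 22.2% of all genes, with a median of -0.13. Syvn1 shares exon positions with Mrpl49 on the opposite strand, and Derl2 with Mis12. The setting for strand in the authors' counting is not given in the sources used here.

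For the translocon, through which new proteins enter the ER, the intervals of both genes among the 36 held equality. Sec61a1, the channel subunit, had 7179 counts in the H19KO library and 7153 in the WT library (0.01, -0.03 to 0.06). Sec61b, a small accessory subunit, had 412 counts in H19KO and 467 in WT, with a wider interval that held equality (-0.17, -0.37 to 0.02). The small subunit Sec61g, which is not among the 36 genes, had 1261 counts in H19KO and 1714 in WT, and its log2 ratio of -0.43 (-0.54 to -0.33) lay wholly beyond 0.32 log2 units.

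Genes of the 3 sensors differed in direction. Atf6, whose product is cut in the Golgi to release a transcription factor (chromosome 1, 170704674 to 170867771), had 3798 counts in the H19KO library and 3343 in the WT library, a log2 ratio of 0.19 (0.12 to 0.26). Ern1, the kinase and RNase IRE1, had 2225 counts in H19KO and 2492 in WT (-0.16, -0.24 to -0.07). Eif2ak3, the kinase PERK that halts translation, had 1079 counts in H19KO and 1265 in WT (-0.22, -0.34 to -0.10). The ATF6 paralog Atf6b, which is not among the 36 genes, had 703 counts in H19KO and 965 in WT (-0.45, -0.59 to -0.31). Transcript counts do not show whether a sensor was active, and counts per gene do not separate the spliced from the unspliced Xbp1 transcript.

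Downstream of the sensors, Xbp1 and Atf4 were near equality, while Ddit3 and the effector Ppp1r15a were lower in the H19KO library. Xbp1, whose transcript IRE1 splices, had 2916 counts in H19KO and 3081 in WT (-0.07, -0.14 to 0.00). Atf4, whose translation PERK promotes, had 3317 counts in H19KO and 3189 in WT (0.06, -0.01 to 0.14). Ddit3, the stress transcription factor CHOP, had 370 counts in H19KO and 490 in WT (-0.40, -0.60 to -0.20). It shares exon positions with Mars on the opposite strand, which had 1541 counts in H19KO and 1540 in WT. Of the pair Xbp1 and Atf4, neither interval excluded equality, whereas that of Ddit3 did.

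Ppp1r15a, the phosphatase subunit that lets translation resume (chromosome 7, 45522916 to 45526268), had 819 counts in the H19KO library and 1156 in the WT library, a log2 ratio of -0.49 (-0.62 to -0.36). It shares exon positions with Tulp2 on the opposite strand, which had 330 counts in H19KO and 423 in WT. Trib3, a pseudokinase induced by ATF4 and CHOP, was the rarest of the 36 with 26 counts in H19KO and 42 in WT. Its log2 ratio of -0.67 (-1.45 to 0.06) could not be told from equality at this depth. Of the 5 genes of this role 2 were lower beyond counting error and 0 higher, beside 24.0% and 22.2% of all genes. Their median was -0.40.

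**Figure D3:**
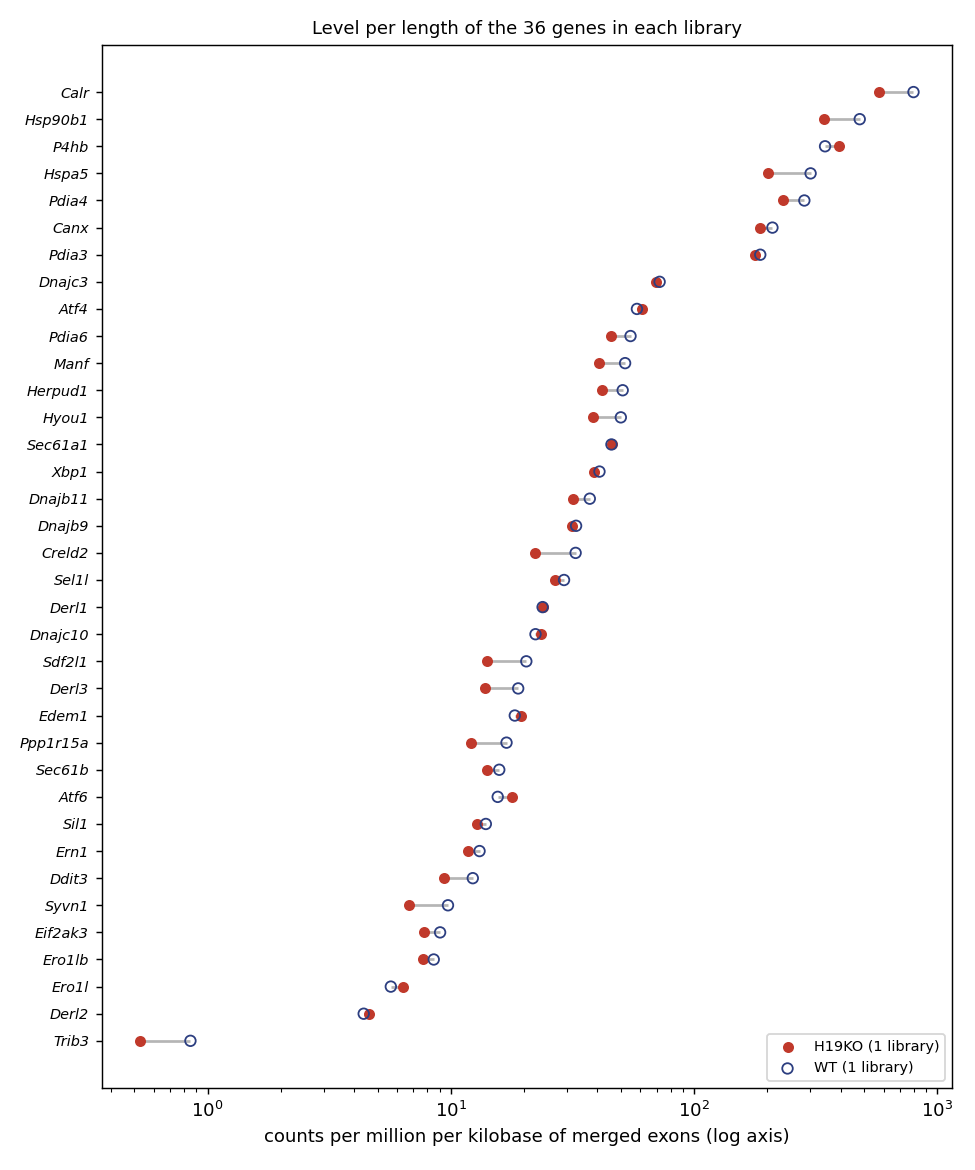
Level of each of the 36 genes in CPM per kilobase of merged exons (x axis, log scale), filled points for the H19KO library and open circles for the WT library, sorted by the WT level. Calr is at the top of both libraries (574 in H19KO and 797 in WT) and Trib3 at the bottom (0.529 in H19KO and 0.850 in WT).

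Levels were also compared per length, as CPM per kilobase of merged exons in GENCODE M21, which makes genes with many long isoforms look lower. Calr led both libraries at 574 in H19KO and 797 in WT. Hsp90b1 stood at 342 in H19KO and 479 in WT, and P4hb at 393 in H19KO and 345 in WT. The order of this pair was thus reversed, with P4hb second in the H19KO library and Hsp90b1 second in the WT library. Pdia4 (233 in H19KO and 284 in WT) and Hspa5 (201 in H19KO and 301 in WT) also changed places, with Pdia4 ahead in the H19KO library and Hspa5 ahead in the WT library. Trib3 was last in both.

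Summed over the 36 genes, the H19KO library held 231360 counts, or 1.00% of its total (exact binomial interval 1.00 to 1.01). The WT library held 279815 counts, or 1.20% (1.19 to 1.20). The ratio of the sums was -0.27 on the log2 scale (-0.27 to -0.26). Hspa5, Hsp90b1 and Calr, grouped after their values were seen, accounted for 78.8% of the difference in counts, with 89685 counts in H19KO and 127849 in WT. For the remaining 33 genes the sums were 141675 in H19KO and 151966 in WT, a log2 ratio of -0.09 (-0.10 to -0.08).

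**Figure D4:**
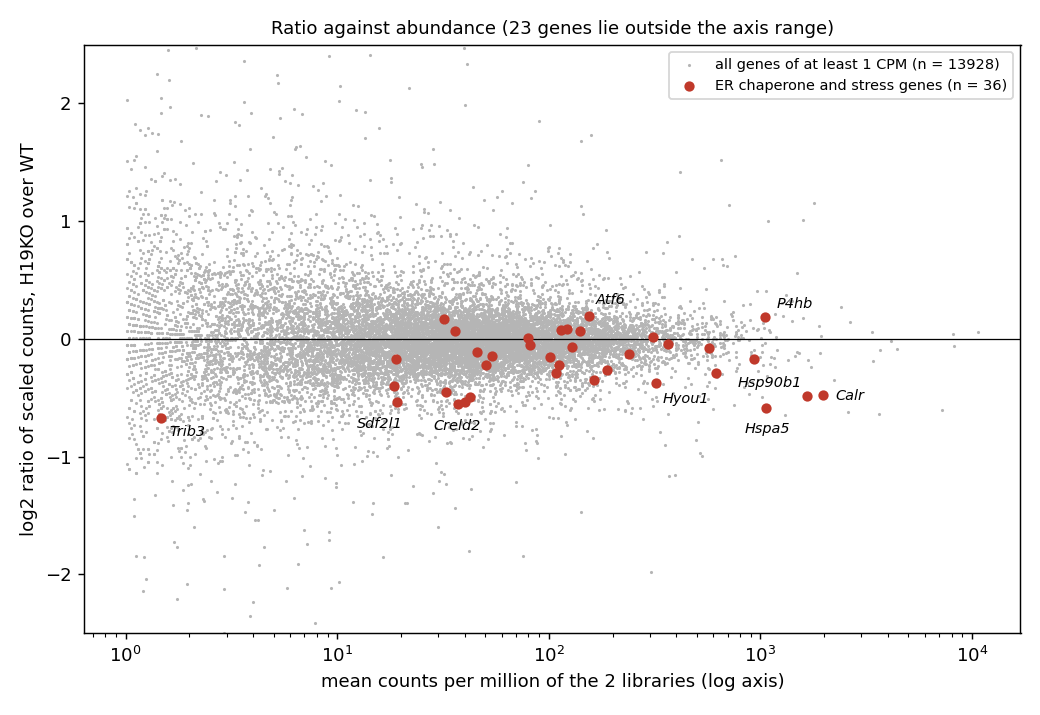
Log2 ratio of H19KO over WT (y axis) against the mean CPM of the libraries (x axis, log scale), with all 13928 genes of at least 1 CPM in grey (23 of them beyond the axis) and the 36 ER genes in red. Hspa5, Hsp90b1 and Calr lie near the lower edge of the narrow cloud at high abundance, where the central 95% of genes of at least 50 CPM runs from -0.45 to 0.47.

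Among genes of at least 50 CPM the spread was narrower, and 3 of the 25 ER genes at that abundance lay outside its central 95% of -0.45 to 0.47. They were Hspa5, Hsp90b1 and Calr, all on the lower side. The shares of those 4949 genes with a lower ratio were 1.39% for Hspa5, 2.08% for Hsp90b1 and 2.26% for Calr. Hyou1 followed at 3.9% and Manf at 4.69%. At the other end 87.9% of those genes had a lower ratio than Atf6, and 87.6% a lower one than P4hb.

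Elsewhere in the secretory pathway the medians lay closer to equality; whether they differ from those of the 36 genes was not tested. In lists of other pathway genes, 181 genes reached 1 CPM, of which 58 were lower and 42 higher beyond counting error. Among all genes of at least 1 CPM, 24.0% were lower and 22.2% higher by that rule. The median of the 181 pathway genes was -0.02 on the log2 scale. Beyond 0.32 log2 units were 4 higher and 3 lower, and beyond 1.5-fold 1 higher and 1 lower. The 4 higher were Casp12, Erlec1 (0.54, 0.41 to 0.67), Eif2ak2 (0.48, 0.40 to 0.57) and Nupr1 (0.47, 0.39 to 0.55). The 3 lower were Ddit4, Sec61g and Insig1 (-0.405, -0.479 to -0.331). Other ER folding enzymes had a median of 0.02 over 37 genes, with 6 lower and 11 higher. Their most abundant genes were the collagen chaperone Serpinh1 (-0.12, -0.15 to -0.09), the calcium-binding protein Calu (0.18, 0.15 to 0.22) and the disulfide isomerase Txndc5 (0.05, 0.01 to 0.09). Genes of translocation, signal peptide removal and glycosylation had a median of -0.02 over 35 genes, with 12 lower and 6 higher. The most abundant of them, Ssr3 of the translocon-associated complex, had 15647 counts in H19KO and 15516 in WT (0.02, -0.01 to 0.05). The oligosaccharyltransferase subunits Rpn1 and Rpn2 had log2 ratios of -0.08 (-0.12 to -0.03) and 0.01 (-0.03 to 0.05).

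Other degradation genes had a median of -0.02 over 28 genes, with 9 lower and 9 higher. Among them the segregase Vcp, which pulls proteins out of the membrane, had a log2 ratio of 0.09 (0.05 to 0.13). The mannosidase-like Edem3 had 8400 counts in H19KO and 6877 in WT (0.30, 0.25 to 0.34), and the lectin Os9 had 0.18 (0.13 to 0.23). Genes of ER retention and vesicle transport had a median of -0.06 over 28 genes, with 12 lower and 4 higher, such as the coat subunits Copa (-0.05, -0.09 to -0.01), Arcn1 (-0.05, -0.10 to -0.01) and Sec31a (-0.14, -0.19 to -0.09). No list in these 2 groups had a gene beyond 1.5-fold.

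Genes that process or assist the sensors had a median of -0.09 over 24 genes, with 9 lower and 4 higher. The protease Mbtps1, which cuts ATF6, had 7000 counts in H19KO and 6895 in WT (0.03, -0.02 to 0.08). Creb3l2, an ER-anchored transcription factor related to ATF6, had 2708 counts in H19KO and 3430 in WT (-0.33, -0.41 to -0.26), and the membrane protein Tmbim6, which dampens IRE1, had 0.18 (0.13 to 0.22). Casp12, an ER-associated caspase, was the exception in size, with 804 counts in the H19KO library and 382 in the WT library, a log2 ratio of 1.08 (0.90 to 1.26). Known targets of the integrated stress response, the programme that PERK and ATF4 share with other kinases, had a median of 0.00 over 29 genes, with 10 lower and 8 higher. The tRNA synthetases Eprs (0.02, -0.02 to 0.07) and Aars (0.04, -0.02 to 0.09) and the transporter subunit Slc3a2 (0.00, -0.05 to 0.06) had intervals that held equality. Ddit4, an inhibitor of mTOR signalling, was lower, with 483 counts in H19KO and 866 in WT, a log2 ratio of -0.83 whose bound nearer to equality was -0.67.

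**Figure D5:**
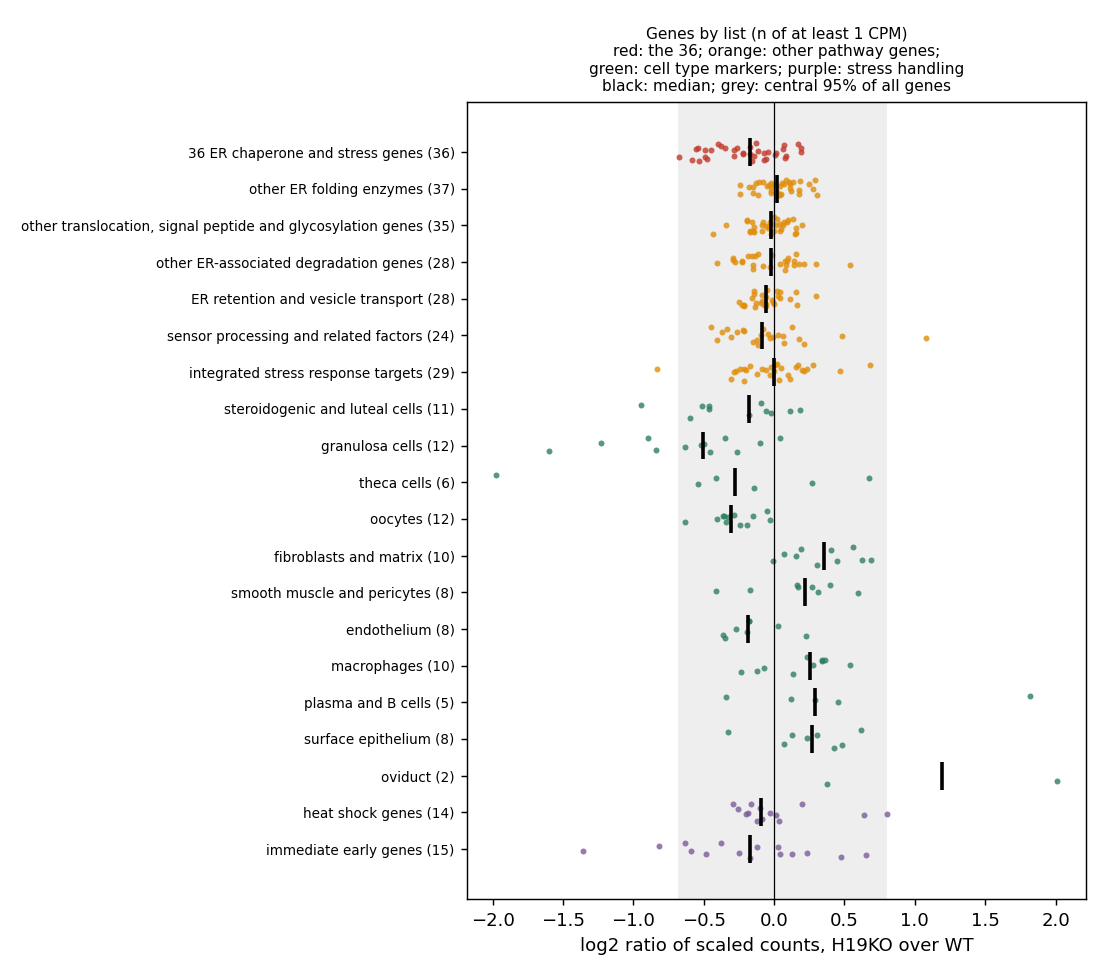
Log2 ratio of H19KO over WT (x axis) of single genes in each list (rows, with the number of at least 1 CPM), with black bars at the medians and grey for the central 95% of all genes. The 36 ER genes have a median of -0.17, the 6 lists of other pathway genes medians between -0.09 and 0.02, and the granulosa cell markers -0.51. Steroidogenic and luteal markers have -0.18, endothelial -0.19, theca -0.28 and oocyte markers -0.31. Immediate early genes have -0.17 and heat shock genes -0.09. The remaining marker lists run from 0.22 (smooth muscle) to 1.20 (oviduct).

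Markers of several ovarian cell types also differed between the libraries. By counting error alone, 24.0% of all genes of at least 1 CPM were lower and 22.2% higher. Granulosa cell markers, of which 11 of 12 were lower beyond counting error and 1 higher, summed to 4302 CPM in H19KO and 5617 CPM in WT. The aromatase gene Cyp19a1 had 345 counts in H19KO and 1052 in WT (-1.60, -1.78 to -1.42), and the ligand gene Ihh had 454 in H19KO and 1070 in WT (-1.23, -1.39 to -1.07). Theca cell markers were lower for 4 of 6 and higher for 2, but their sum was higher in H19KO, with 3651 CPM against 3317 CPM in WT. Within that list the androgen synthesis gene Cyp17a1 had 2834 counts in H19KO and 11243 in WT (-1.98, -2.04 to -1.92), whereas Mgarp had 16943 in H19KO and 10668 in WT (0.68, 0.64 to 0.71). Of the steroidogenic and luteal markers 9 of 11 were lower and 2 higher, with sums of 17834 CPM in H19KO and 18981 CPM in WT. Oocyte markers were lower for 7 of 12 and higher for 0, with 358 CPM in H19KO and 449 CPM in WT. Fibroblast and matrix markers were higher for 9 of 10 and lower for 0, with 5755 CPM in H19KO and 4457 CPM in WT. No gene of these 5 lists was at 0 in either library. Plasma cells hold much of this machinery. Of 12 plasma and B cell markers 5 reached 1 CPM, of which 2 were higher and 0 lower. Jchain, which encodes the joining chain of secreted antibodies, had 124 counts in H19KO and 35 in WT (1.82, 1.28 to 2.42). Mzb1, a plasma cell ER protein, had 3 counts in H19KO and 2 in WT. Tnfrsf17 was at 0 in H19KO and Fcrl5 at 0 in WT, and the list summed to 335 CPM in H19KO and 245 CPM in WT, most of it from Sdc1, which epithelia also express. Smooth muscle markers were higher for 6 of 8 and lower for 2, with 1845 CPM in H19KO and 1505 CPM in WT. Macrophage markers were higher for 7 of 10 and lower for 1, with 661 CPM in H19KO and 535 CPM in WT. Surface epithelium markers were higher for 5 of 8 and lower for 1, with 207 CPM in H19KO and 180 CPM in WT. Endothelial markers were lower for 6 of 8 and higher for 1, with 611 CPM in H19KO and 705 CPM in WT. Oviduct markers were scarce, with 2 of 6 at 1 CPM or more, both higher, and Ovgp1 had 134 counts in H19KO and 33 in WT (2.01, 1.47 to 2.63). The part of these cell types in the ER gene ratios was not tested.

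Heat shock genes, a list of 14 that includes the mitochondrial chaperonin genes Hspd1 and Hspe1, had a median of -0.09, with 8 lower and 3 higher. The shares of all genes of at least 1 CPM were 24.0% lower and 22.2% higher. Hsp90ab1 had 99172 counts in H19KO and 105830 in WT (-0.09, -0.10 to -0.07), and Hspa8 had 73582 in H19KO and 84345 in WT (-0.19, -0.20 to -0.17). The heat-inducible Hspa1a had 541 counts in H19KO and 311 in WT (0.81, 0.60 to 1.01), its near copy Hspa1b had 808 in H19KO and 806 in WT (0.01, -0.13 to 0.15), and reads of that pair may not be separable. The small heat shock gene Hspb8 had 961 in H19KO and 620 in WT (0.64, 0.49 to 0.79). Immediate early genes had a median of -0.17 over 15 genes, with 9 lower and 3 higher, and the most abundant, Jun, was higher at 0.65 (0.58 to 0.73). Their part in the ER gene ratios was not tested either.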

How the data were processed

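RNA from 1 H19KO and 1 WT whole-ovary sample was sequenced with paired ends after depletion of ribosomal RNA, per the labels' protocols. The authors deposited whole-number counts per gene symbol. The submitters' processing notes name STAR 2.5.0a, Cufflinks 2.2.1, DESeq2 1.0.0 and the mm10 build, without roles. How reads were counted, and on which annotation and strand, is not given in the sources used here. Rescaling of the counts before deposit cannot be told from the values: the lowest whole number absent is 937 in the H19KO library and 527 in the WT library. Of the rows, 27 carry dates in place of symbols (0.231% of H19KO and 0.229% of WT counts) and were kept in the totals.

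Counts were scaled by TMM (edgeR 4.0.16, R 4.3.3). Log2 ratios had 0.5 added to each count. The exact conditional binomial 95% interval of each ratio used scipy 1.17.1, and the size rules asked that the whole interval lie beyond 1.25-fold (0.32 log2 units), 1.5-fold or 2-fold at a mean of at least 1 CPM. These are rules of size with no test. The median interval of the 36 genes was 0.16 log2 units wide. Positions and exon lengths came from GENCODE M21 on the same build, and promoters from RefSeq (GRCm38.p6). For 25 of 30 promoters the bases after the start lay in a GENCODE transcript of that gene on the printed strand. BLAST 2.17.0 searched for transcripts of other genes at 95% identity or more over 300 bases or more, and found one each for Derl1, Ero1lb and Sec61a1, none with a row in the table. The members, lists and rules were chosen with earlier results of these data known. Besides the 36 genes, the rule named H19, the 3 most abundant and up to 3 genes beyond 1.5-fold of each pathway list, and the 2 most abundant and any gene beyond 2-fold of a marker list, of which the text prints some of the most abundant and all those beyond 2-fold. Genes outside it (Rbm15b, Mars, Mrpl49, Mis12, Tulp2, Calr4, Xlr3b, Pan2, Mzb1, Tnfrsf17, Fcrl5, Sec61g, Atf6b, Tmx3, Pdia5, Erlec1, Eif2ak2, Nupr1, Insig1, Hspd1, Hspe1, Hspa1a, Hspa1b and Hspb8) were named after their values were seen. Planned protein features were not analysed here. Scripts were tested on simulated counts. Alternatives were 3 other scalings (one by DESeq2 1.42.0), other minimums, limits and added counts, and the point ratio.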

Additional observations from a re-analysis of the deposited data

How the results depend on the processing

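Of 331 summary values under alternatives, 323 kept their size within 1.5 times (counts of genes) or moved by less than the median distance from ratio to interval bound (medians). The 36 genes beyond 1.5-fold numbered 0 under every other scaling and minimum, and by the point ratio 1 was lower (Trib3). With the limit at 0.32 log2 units 8 were lower (7 under total count scaling, without Hyou1), and at a minimum of 50 CPM, added after the values were seen, 4, since fewer genes were counted. The genes of BiP and its co-factors higher beyond counting error numbered 1 under total count scaling and 1 when the 10 most abundant genes were kept out of library sizes (Dnajc10). Those of the stress transcription factors and effectors numbered 1 under total count scaling (Atf4), and those of ER-associated degradation 0 under median-of-ratios scaling (Edem1). The median of the stress transcription factors and effectors was -0.23 at a minimum of 5 CPM, where Trib3 is left out. Of 344 values of single genes, 334 held and 0 changed sign. The others included Dnajc3, Edem1, Arcn1 and Cyp11a1, whose intervals came to hold equality under another scaling. The intervals of Dnajc10, Xbp1 and Atf4 held equality as reported and cleared it under another scaling. Hsd3b1 moved by more than its counting error. No paired analysis was possible because H19KO and WT had 1 library apiece, so no replicate could be left out either. Depth limits Trib3 most.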
